A study of Homo sapiens with 8 samples.

Results

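Of the 25179 H3K27Ac enhancers of MB002 on chromosomes 1 to 22, 2451 (9.73%) overlapped by at least 1 bp an enhancer of each of D425, HD-MB03 and UW228. These 2451 regions are called shared enhancers here. They were chosen from the peak calls of the same libraries, so their presence in all 4 lines and their signal are descriptions and not findings, and no test was made on them. H3K27Ac ChIP-seq was performed in 3 lines labelled as group 3 subtype medulloblastoma (G3-MB) cells, which were HD-MB03, MB002 and D425, and in UW228, labelled as an SHH subtype medulloblastoma line. All 4 are established tumor lines without a treatment. MB002 and HD-MB03 were grown as tumor stem cell cultures, whereas D425 and UW228 were grown in serum-containing medium. There were no replicates, with 1 library of H3K27Ac and 1 of input in each line, and an exact permutation test of 3 lines against 1 cannot go below p = 0.25.

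H3K27Ac is an acetylated residue of histone H3 that marks active enhancers and active promoters. Neighbouring peaks are stitched into 1 region, and the regions at the top of the ranking by signal are called super enhancers (SEs) and the others typical enhancers (TEs). SEs are known for lying at genes of cell identity, while active chromatin common to unrelated cell types is known for lying close to promoters of broadly expressed genes. The signal of an enhancer was the H3K27Ac signal minus the input, in rpm (reads scaled to the mapped reads of the library) summed over its length, and signal per bp was this value divided by the length of all enhancers that a line had at the region. The depth of the libraries is unknown.

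The bases that shared enhancers had in common between the 4 lines are shown first by sequence. The following windows of 300 bp (GRCh38, plus strand, no annotated exon) lay in the bases common to the enhancers of all 4 lines. A stitched enhancer also includes bases without a peak, so a common base is not always an acetylated one. Capitals mark the letters of the motifs searched on both strands, GGGCGG for SP/KLF factors, TAATCC for CRX/OTX, GCGCATGC for NRF1, CCAAT for NFY and TGANTCA for AP-1, where a match is not evidence of binding. The first 3 are from the enhancers of highest rank among those that consisted of 1 peak in every line. The window near C6orf62 was at chr6:24721127-24721426, that near GLDC at chr9:6681387-6681686 and that of ARID2, in an intron, at chr12:45730826-45731125. The window near TMEM174 at chr5:73215966-73216265 is from the shared enhancer with the highest ratio of G3-MB to UW228 signal per bp, and the window near RFC3 at chr13:33613642-33613941 from that with the highest ratio of UW228 to G3-MB.
C6orf62: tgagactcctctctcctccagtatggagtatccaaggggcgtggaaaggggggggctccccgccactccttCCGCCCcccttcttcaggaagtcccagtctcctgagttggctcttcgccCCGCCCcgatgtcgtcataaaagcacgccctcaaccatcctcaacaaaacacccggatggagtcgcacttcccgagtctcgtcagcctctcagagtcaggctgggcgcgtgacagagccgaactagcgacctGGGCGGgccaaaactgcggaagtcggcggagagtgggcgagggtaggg
GLDC: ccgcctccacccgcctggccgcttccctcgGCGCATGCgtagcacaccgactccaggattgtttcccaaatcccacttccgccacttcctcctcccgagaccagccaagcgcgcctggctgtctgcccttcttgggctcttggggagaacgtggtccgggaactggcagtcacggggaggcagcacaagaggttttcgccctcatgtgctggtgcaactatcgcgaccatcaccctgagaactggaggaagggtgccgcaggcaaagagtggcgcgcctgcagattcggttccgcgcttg
ARID2: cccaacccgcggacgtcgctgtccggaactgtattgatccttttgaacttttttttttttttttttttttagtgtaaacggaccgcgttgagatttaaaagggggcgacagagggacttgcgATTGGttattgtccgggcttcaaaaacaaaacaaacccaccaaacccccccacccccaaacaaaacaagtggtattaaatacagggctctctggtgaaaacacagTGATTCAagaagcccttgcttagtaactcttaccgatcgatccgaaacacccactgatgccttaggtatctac
TMEM174: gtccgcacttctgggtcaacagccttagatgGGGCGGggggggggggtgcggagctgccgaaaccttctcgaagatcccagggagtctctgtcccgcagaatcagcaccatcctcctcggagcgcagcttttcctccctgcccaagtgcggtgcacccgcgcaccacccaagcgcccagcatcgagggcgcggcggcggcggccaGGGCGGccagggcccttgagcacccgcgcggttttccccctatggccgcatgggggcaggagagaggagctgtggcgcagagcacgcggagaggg
RFC3: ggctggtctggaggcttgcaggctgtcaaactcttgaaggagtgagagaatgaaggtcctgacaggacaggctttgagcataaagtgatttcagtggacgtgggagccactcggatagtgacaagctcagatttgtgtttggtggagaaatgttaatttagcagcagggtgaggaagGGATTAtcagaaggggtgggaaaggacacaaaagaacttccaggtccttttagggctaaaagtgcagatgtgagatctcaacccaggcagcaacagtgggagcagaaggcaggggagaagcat

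The windows differed in base composition. GC content was 62.7% at C6orf62, with 21 CpG and 3 SP/KLF matches, and 63.7% at GLDC, with 23 CpG and 1 NRF1 match. It was 45% at ARID2, with 14 CpG, 1 AP-1 match and 1 NFY match. The window at TMEM174, from a G3-high enhancer, had a GC content of 69.7% with 26 CpG and 2 SP/KLF matches. The window at RFC3, from a UW228-high enhancer, had 49.7% with 2 CpG and 1 CRX/OTX match. The RFC3 window was the whole common part of 300 bp, at the start of the MB002 region. Signal was measured over whole enhancers and not in the windows, and the UW228 enhancer at RFC3 had 4606 bp. The C6orf62 enhancer held the transcription start site (TSS) of the gene and had a signal per bp of 3.83, 4.06, 4.50 and 2.57 rpm in MB002, D425, HD-MB03 and UW228. ARID2 encodes a subunit of a SWI/SNF chromatin remodelling complex. Its enhancer had 2.43, 2.66, 4.74 and 1.06 rpm per bp in the same order. UW228 was the lowest line at both loci.

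MB002 enhancers were found in D425 most often and in UW228 least often. An enhancer of D425 overlapped 11394 (45.3%) of them, an enhancer of HD-MB03 8987 (35.7%) and an enhancer of UW228 5138 (20.4%). No other line had an enhancer at 10041 (39.9%). A further 3964 (15.7%) were found in D425 and HD-MB03 but not in UW228. Seen from the other tables, the shared regions took in 10.8% of the enhancers of D425, 18.2% of HD-MB03 and 12.8% of UW228. The region was matched by exactly 1 enhancer of each other line in 1956 of the 2451 cases (79.8%).

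Shared enhancers were long. Their median length was 11620 bp with 3 peaks, compared to 1348.5 bp with 1 peak for the MB002 enhancers that were not shared. They held 33.8% of the signal of all MB002 enhancers. The share of enhancers found in all lines was 1.27% in the shortest decile, with lengths up to 266 bp, and 35.4% in the longest decile, with lengths from 17226 bp. A longer region overlaps another region more easily. TSS and base content are therefore also given by decile of length, and for enhancers of 1 peak. The latter are not of equal length, with a median of 1341 bp for the shared and 417 bp for the others. SE calls, signal and gene lists are not given at matched length.

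Overlap of stitched regions was not the same as acetylation at the same base. At 1909 shared enhancers (77.9%) at least 1 bp lay in an enhancer of all 4 lines, and the median common part of these, summed over its stretches, was 1102 bp, or 21.2% of the MB002 length. At the other 542, the enhancers of the other lines covered different stretches of the MB002 region, and no base was common to all. These 542 had a median length of 19081.5 bp, compared to 9188 bp for the 1909. AUTS2 was an extreme case. The MB002 enhancer inside this neurodevelopmental gene, at chr7:69812749-69967837, had 56 peaks, the most of all shared enhancers. The enhancers it overlapped held 18 peaks in D425, 6 peaks in HD-MB03 and 2 peaks in UW228, and no base was common to the 4 lines. A single peak in every line was seen at 71 shared enhancers, 64 of which had a common part.

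At the edge of the rule, the smallest overlaps were 4 bp near ENTREP3, 11 bp near RALGAPA2 and 20 bp near C11orf58, each with UW228. A total of 19 shared enhancers had a smallest overlap under 100 bp. Just outside, the region near GJA10 was 1 bp from a UW228 enhancer, that near ZFP36L1 8 bp from an HD-MB03 enhancer and that near PDE6H 9 bp from a UW228 enhancer. Of the 5479 MB002 enhancers found in 2 of the other lines, UW228 was the missing line in 3964, HD-MB03 in 995 and D425 in 520.

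TSS content rose with the number of lines. A protein-coding TSS of GENCODE 44 lay inside 444 of the 2451 shared enhancers (18.1%), compared to 5.32% of all MB002 enhancers and 896 (3.94%) of those not shared. The share was 1.45% of the enhancers found in no other line, 4.0% of those in 1 other line and 8.43% of those in 2. A further 17.6% of shared enhancers lay within 10 kb of a TSS and 28.5% at 10 to 50 kb, which left 35.8% more than 50 kb away. For enhancers not shared, 54.0% were more than 50 kb away. With enhancers of 1 peak in MB002 only, 55 of 531 shared enhancers (10.4%) held a TSS, compared to 217 of 11646 not shared (1.86%). The median length of 1-peak enhancers found in 0, 1 and 2 other lines was 348, 488 and 932 bp, so length moved with this share, and its part was not tested. Per the methods of the study, regions flanking promoters were excluded. An enhancer of 1 peak has no stitched gap, so the TSS inside the 55 shared and 217 other ones lay in a peak. Whether a TSS inside an enhancer of more peaks had a peak of its own or lay between stitched peaks was not tested.

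The difference in TSS content depended on the rank of the enhancers. In the decile of MB002 enhancers with the highest signal, which held 965 of the shared enhancers, 35.3% of the shared and 31.7% of the other enhancers held a TSS. In the next decile, with 527 shared enhancers, the values were 11% and 11.4%. In the third decile they were 7.12% and 3.12%, and in the fourth 4.35% and 1.62%. Length gave a different picture. In the longest decile, 29.4% of the shared and 16.5% of the other enhancers held a TSS, and in the sixth decile 8.33% and 1.25%. The shared enhancers stood above the others from the third to the longest decile of length, whereas the 2 shortest deciles held no shared enhancer with a TSS. By rank they stood below the others in the second, eighth and ninth deciles, with no shared TSS in the last pair, which held 43 and 33 shared enhancers.

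Shared enhancers of 1 peak were rich in GC and CpG. Their median GC content was 53.3%, compared to 49.5%, 46.9% and 45.5% for 1-peak enhancers found in 2, 1 and 0 other lines. Their median ratio of observed to expected CpG was 0.342, compared to 0.194 for 1-peak enhancers not shared. Over whole regions, stitched ones included, the difference was smaller, with a median GC content of 46.0% in shared and 44.1% in other enhancers. By length, shared enhancers had the higher median in every decile, with 55.8% against 47.6% in the shortest and 43.5% against 42.2% in the longest.

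**Figure D1:**
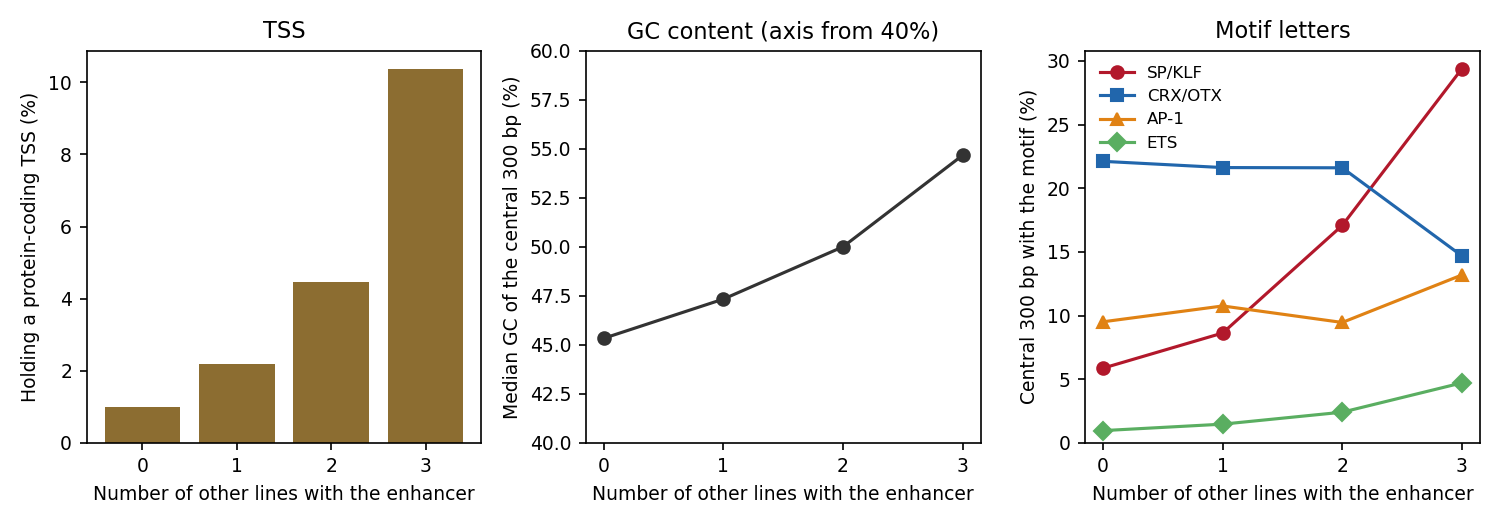
MB002 enhancers of 1 peak by the number of other lines in which they were found (horizontal axes, 3 marks the shared enhancers), with the percent holding a protein-coding TSS (left), the median GC content of the central 300 bp (middle, axis from 40%) and the percent of central 300 bp windows with motif letters (right). TSS content, GC content and SP/KLF letters rise with each line added, to 10.4%, 54.7% and 29.4%, while CRX/OTX letters are lowest at 14.7% in the shared enhancers.

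Sequence motifs of GC-rich promoters were more frequent in the shared enhancers. GGGCGG, the letters bound by SP and KLF factors, was in the central 300 bp of 156 of 531 shared 1-peak enhancers (29.4%), compared to 9.26% of all 12177 1-peak enhancers. The share was 5.87%, 8.63% and 17.1% for those found in 0, 1 and 2 other lines. CCGGAAG of ETS factors was in 4.71% against 1.47% of all, GCGCATGC of NRF1 in 2.26% against 0.657%, and TGACGTCA, the cAMP response element, in 1.13% against 0.181%. Without the enhancers that held a TSS, SP/KLF letters were in 27.3% of 476 shared and 7.83% of 11429 other enhancers. GC content moved with these letters, and its part in their frequency was not tested.

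Motifs with another composition went less far or the other way. TAATCC of CRX and OTX2, homeodomain factors of photoreceptors that are expressed in G3-MB, was in 14.7% of the shared 1-peak enhancers and in 21.6% of all. The share was also 21.6% in the 1243 1-peak enhancers found in D425 and HD-MB03 but not UW228. CCAAT of NFY was in 28.2% against 32.8% of all. TGANTCA of AP-1 was in 13.2% of the shared and 10.0% of all, in 6.76% of those found in the G3-MB lines only, and in 14.6% of the 582 found in UW228 but not D425 or HD-MB03. CAGCTG, an E-box of neurogenic bHLH factors, was in 23.5% against 18.8%, and in 24.9% of those found in D425 and HD-MB03 but not UW228. The core of CTCF, CCACNAGGG, was in 1.69% against 1.42%, with 2.01% in the latter set, AAGATGGC of YY1 in 1.51% against 1.51%, and GTTGCC of RFX factors in 10.7% against 12.2%.

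Promoters inside shared enhancers are shown by the bases before their start. Of the promoters of the RefSeq table (GRCh38.p14), 335 lay whole inside a shared enhancer and 63 of these lay inside an enhancer of all 4 lines. The following 3 are those of the enhancers with the highest ranks, each with the 250 bases upstream of the start on the minus strand, and capitals mark SP/KLF, NFY and cAMP response element letters. IRF2BP2 is at chr1:234610179-234610428, KLF9 at chr9:70414658-70414907 and ZC3H4 at chr19:47113777-47114026.
IRF2BP2: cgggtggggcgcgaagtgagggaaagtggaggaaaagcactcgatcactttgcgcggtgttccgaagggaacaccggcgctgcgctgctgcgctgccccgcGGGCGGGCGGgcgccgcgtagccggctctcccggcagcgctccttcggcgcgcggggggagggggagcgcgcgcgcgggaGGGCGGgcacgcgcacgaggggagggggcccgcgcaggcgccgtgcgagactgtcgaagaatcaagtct
KLF9: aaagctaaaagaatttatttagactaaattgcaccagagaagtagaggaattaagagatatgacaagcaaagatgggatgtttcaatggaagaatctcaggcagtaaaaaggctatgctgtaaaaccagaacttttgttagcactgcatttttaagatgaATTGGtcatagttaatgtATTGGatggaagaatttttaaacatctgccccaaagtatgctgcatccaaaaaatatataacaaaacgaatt
ZC3H4: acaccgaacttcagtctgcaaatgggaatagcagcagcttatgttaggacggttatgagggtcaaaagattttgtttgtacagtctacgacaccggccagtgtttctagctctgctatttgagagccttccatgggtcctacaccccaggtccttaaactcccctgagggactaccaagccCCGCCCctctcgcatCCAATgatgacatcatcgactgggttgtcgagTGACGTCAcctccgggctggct

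The promoters were not alike. IRF2BP2, which encodes a zinc finger corepressor, had a GC content of 74.4% with 40 CpG and 3 SP/KLF matches. The bases before the start of KLF9, a Kruppel-like factor, had a GC content of 32.4% with 1 CpG and 2 NFY matches. ZC3H4 had 52.4% with 10 CpG, 1 match each of SP/KLF and NFY and 1 of the cAMP response element. Over the 63 promoters, SP/KLF letters were in 71.4%, compared to 59.6% of the 14616 promoters searched. cAMP response elements were in 6.35% against 2.70%, YY1 letters in 7.94% against 3.99% and AP-1 letters in 3.17% against 5.69%. ETS, NFY and E-box letters were in 15.9%, 36.5% and 17.5% against 14.5%, 36.3% and 17.8%. With 63 promoters, 1 promoter more or less moves a share by more than 1 percentage point.

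SE calls were more frequent among the shared enhancers of each line. A region was counted as a SE of another line where any enhancer of that line overlapping it was a SE. Of the 2451, 212 (8.65%) were SEs in MB002 and 243 (9.91%) in D425, while HD-MB03 had 190 (7.75%) and UW228 339 (13.8%). Because 1 SE can overlap several regions, these came from fewer SEs. They were 213 of the 2771 D425 enhancers at the regions, 162 of 2740 in HD-MB03 and 273 of 2593 in UW228. Over all enhancers of a line, SEs made up 1.40% for MB002, 1.67% for D425, 2.0% for HD-MB03 and 3.66% for UW228. The same libraries gave the rule and the SE calls, so nothing is read from this difference. In reverse, 60.1% of the MB002 SEs were shared, and a shared region was overlapped by 49.9% of the SEs of D425, 54.0% of HD-MB03 and 36.9% of UW228. Most shared enhancers, 1732, were a SE in no line, 515 in 1 line, 149 in 2 and 49 in 3. The largest group with a single SE call was the 242 that were a SE in UW228 only.

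A SE in all 4 lines was seen at 6 shared enhancers, which is 0.0238% of all MB002 enhancers. Those described here lay at MRPS23 and CUEDC1, IRF2BP2, ZMYND8, NDST1, and MLLT10 and SKIDA1. None of the 13 genes analysed here from the SE-driven network of the study is among them.

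The longest was at MRPS23, which encodes a mitochondrial ribosomal protein, and CUEDC1, at chr17:57805858-57972476. It spanned 166618 bp with 33 peaks in MB002, and UW228 had 30, HD-MB03 27 and D425 39. It ranked 10 in MB002 and 8 in D425, at the top of both lists, 62 in HD-MB03 and 28 in UW228. Signal per bp was 2.24, 1.58, 0.715 and 1.05 rpm in MB002, D425, HD-MB03 and UW228, highest in MB002 and lowest in HD-MB03. A total of 81414 bp, in several stretches, was common to all lines. The input per bp, divided by its median over all enhancers of the line, was 3.01 in D425, the highest of its enhancers there, and 1.64 in MB002.

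IRF2BP2, at chr1:234585089-234620729, had SEs that ranked 176, 52, 10 and 86 in MB002, D425, HD-MB03 and UW228. Signal per bp in the same order was 1.32, 1.22, 2.21 and 1.94 rpm. HD-MB03 and UW228 were thus the higher pair, and the highest line was less than 2-fold above the lowest. Its paralog IRF2BPL, at chr14:76999641-77053278, was a SE in MB002, HD-MB03 and UW228 at ranks 63, 56 and 441. In D425 it was a TE at rank 714, with 0.434 rpm per bp compared to 1.13 to 1.41 in the others.

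ZMYND8, a chromatin reader, had a SE of 1 peak in MB002 at chr20:47351238-47361718. With 4.14 rpm it had the highest signal per bp of the 6 in MB002. D425 had 1.82, HD-MB03 2.49 and UW228 1.70. In UW228 the region belonged to a SE of 12 peaks and 72828 bp at rank 16, whereas the ranks were 208, 183 and 274 in the G3-MB lines.

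NDST1, an enzyme of heparan sulfate synthesis, had its SE at chr5:150483388-150537029, at ranks 89, 138, 261 and 440 in MB002, D425, HD-MB03 and UW228. Signal per bp was 1.23, 0.865, 0.396 and 0.558 rpm, highest in MB002. MLLT10, a chromatin-associated gene known as a fusion partner in leukemia, and SKIDA1 shared the SE at chr10:21499859-21531525. Its ranks were 284, 231, 23 and 669, and signal per bp was 1.19, 1.21, 2.11 and 1.34 rpm, highest in HD-MB03.

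Other shared enhancers with a high rank in every line lay at IER2, PCBP1, TEAD1 and AHDC1. The enhancer of IER2, an immediate early gene, and STX10 at chr19:13149374-13168034 was at ranks 545, 272, 69 and 205 and was a SE in D425, HD-MB03 and UW228. That near PCBP1, an RNA-binding protein, was at ranks 665, 265, 155 and 418. Inside TEAD1, a transcription factor of the Hippo pathway, the ranks were 189, 61, 340 and 504, and inside AHDC1 652, 522, 19 and 207. At TEAD1 the relative input of D425 was 2.73.

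Levels varied widely over the shared enhancers. Median signal per bp was 0.640, 0.630, 0.603 and 0.670 rpm in MB002, D425, HD-MB03 and UW228, compared to 0.534, 0.517, 0.508 and 0.652 for all enhancers of these lines. Divided by the median of each line over the shared enhancers, the highest line exceeded the lowest by a median of 3.55-fold (quartiles 2.38 and 5.97) over the 2447 with signal in every line. The 4 lines were within 2-fold at 379 of these (15.5%). The rank correlation of signal per bp over the 2451 regions was 0.39 between MB002 and D425, 0.35 between MB002 and HD-MB03 and 0.33 between D425 and HD-MB03. With UW228 it was 0.12, 0.08 and 0.12. The regions of a line share its library, and the 3 G3-MB tables were made on another date than that of UW228. The part of the processing was not tested.

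Some strong shared enhancers had almost the same signal per bp in the 4 lines. The enhancer nearest to MARCKS, which encodes an actin-regulating kinase substrate, had 2.40, 2.57, 2.28 and 2.82 rpm per bp in MB002, D425, HD-MB03 and UW228. It had 1 peak in each G3-MB line and lay 291795 bp from the TSS. Near ZNF217, a transcriptional repressor, the values were 1.40, 1.30, 1.44 and 1.18. Inside FOXP4, a forkhead factor, they were 1.08, 1.04, 1.10 and 1.26. Near the start of PFKFB4, a glycolytic regulator, they were 0.949, 0.887, 0.802 and 0.957, and at FAM124A, where no base was common to all lines, 0.908, 1.12, 0.900 and 1.05. The lines differed little in signal per bp at these 5 loci, which were chosen for that. By summed signal they differed more. In the same order of lines, MARCKS had 2969, 3310, 2775 and 25906 rpm and ZNF217 4132, 5135, 3226 and 32853 rpm. Both were a SE in UW228 only. FOXP4 had 25329, 23190, 5692 and 5408 rpm, and FAM124A 11878, 320, 1108 and 461 rpm.

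UW228 stood at least 2-fold above each G3-MB line at 128 shared enhancers (5.22%) and at least 2-fold below each at 239 (9.75%), in signal per bp divided by the median of the line. By summed signal the counts were 441 and 547. Each single line was set against the other 3 in the same way. MB002 was higher than each other at 88 and lower at 180, D425 at 101 and 183, and HD-MB03 at 168 and 135. By signal per bp, UW228 was thus the line that was most often lower, and HD-MB03 the line that was most often higher.

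The 2 sets of enhancers differed in form. The 239 with more signal in each G3-MB line had a median length of 5013 bp in MB002, a TSS inside in 26.4% and a median GC content of 50.5%, and 96 of them were of 1 peak. The 128 with more signal in UW228 had a median length of 15846.5 bp, a TSS inside in 10.2% and a median GC content of 43.2%, and 11 were of 1 peak. SP/KLF letters were in the central 300 bp of 55 of the 96 enhancers of 1 peak in the G3-high set (57.3%). In the UW228-high set they were in 0 of 11, which allows a share of up to 27.3% by counting error. AP-1 letters were in 13 of 96 (13.5%) and in 5 of 11 (45.5%). Per 10 kb of whole enhancers, SP/KLF letters were found 6.88 times in the G3-high and 2.26 times in the UW228-high set, compared to 3.51 times in the others. AP-1 letters were found 3.23 and 3.64 times, compared to 3.46.

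The median length of the regions in each line differed between these sets. In the G3-high set, the median length was 10607 bp in UW228, whereas MB002, D425 and HD-MB03 had 5013, 3042 and 3632 bp. In the UW228-high set it was 15846.5, 13554 and 10921 bp in the G3-MB lines and 8042.5 bp in UW228. Region by region, UW228 had the longest region at 95 and the shortest at 79 of the 239. It had the longest at 39 and the shortest at 38 of the 128. Among the 2084 other shared enhancers it had the longest at 570 and the shortest at 621. The part of length in the calls was not tested. Stitched regions include bases without a peak, which lower the signal per bp. By summed signal, 119 of the 239 were still at least 2-fold higher in each G3-MB line and 16 were higher in UW228. Of the 128, 61 were still higher in UW228 and 9 were lower. A smaller part of the calls thus holds for both measures.

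**Figure D2:**
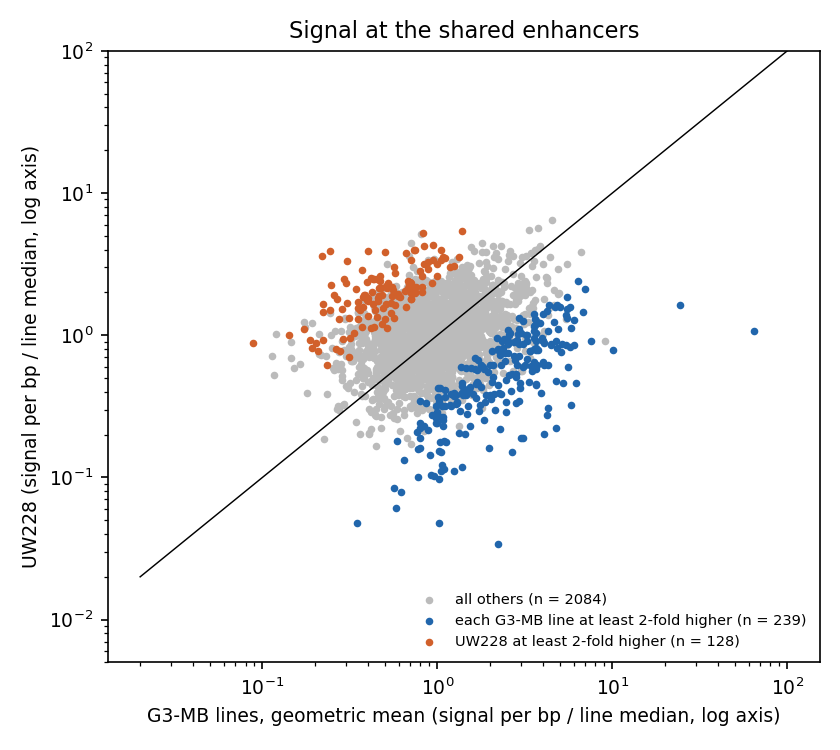
Signal per bp divided by the line median over the 2451 shared enhancers in UW228 (vertical, log axis) and as the geometric mean of the 3 G3-MB lines (horizontal, log axis); each point is 1 enhancer, blue where each G3-MB line was at least 2-fold higher (239), orange where UW228 was (128), and the line marks equal values. Points spread on both sides of the line.

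Among single loci, the enhancer nearest to TMEM174, whose sequence is given above, had 1.11, 1.21, 1.95 and 0.0229 rpm per bp in MB002, D425, HD-MB03 and UW228. The lowest G3-MB line was 48.6-fold above UW228, where the element of 935 bp lay inside a stitched region of 9683 bp. Near MYL12B, a myosin light chain gene, the values were 2.87, 2.57, 3.54 and 0.149, a ratio of 17.3, and the region had 837 bp in MB002 and 25234 bp in UW228. Near LTN1, a ubiquitin ligase of ribosome quality control, they were 2.21, 3.21, 2.58 and 0.183, a ratio of 12.1. Near NOCT they were 0.791, 0.785, 0.410 and 0.0321, a ratio of 12.8. By signal per bp, all 3 G3-MB lines were above UW228 at these loci. By summed signal this held near TMEM174, LTN1 and NOCT with ratios of 4.44, 2.15 and 23.1, but near MYL12B UW228 was the highest line with 3747 rpm, compared to 2405, 1580 and 3472 rpm in MB002, D425 and HD-MB03.

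At the locus nearest to POU5F1B on chromosome 8 the input moved with the signal. Signal per bp was 64.9, 87.2, 11.7 and 0.722 rpm in MB002, D425, HD-MB03 and UW228. The relative input was 46.4, 136, 118 and 0.785, so the G3-MB lines were high in both. The same held at MYC, the oncogene of G3-MB, with 10.8, 40.1, 7.96 and 1.09 rpm per bp and a relative input of 23.8, 62.7, 153 and 0.997. In HD-MB03 the value at MYC is that of a TE at rank 3111, and this line had no enhancer within 10 kb of the MYC TSS. A relative input of at least 5 in any line was seen at 11 shared enhancers (0.449%), 4 of them in the G3-high set and 0 in the UW228-high set. They lay on chromosomes 2, 8, 14 and 20. Dividing the relative signal by the relative input gave 0.713, 1.01, 0.0861 and 1.62 at MYC in MB002, D425, HD-MB03 and UW228, so that UW228 became the highest line. At POU5F1B it gave 2.19, 1.01, 0.163 and 1.37, and UW228 lay between the G3-MB lines. Over all shared enhancers, this division gave 165 at least 2-fold higher and 207 at least 2-fold lower in UW228, compared to 128 and 239 without it.

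In the other direction, the enhancer nearest to RFC3 had 2.64 rpm per bp in UW228 and 0.0665, 0.176 and 0.302 in MB002, D425 and HD-MB03. UW228 was 8.72-fold above the highest G3-MB line. Near UBE2L5 MB002 had 0.0989, D425 0.277, HD-MB03 0.219 and UW228 1.66, a ratio of 5.98. Near ASB17 the values were 0.104, 0.0474, 0.0343 and 0.592, a ratio of 5.70. Near TM2D1 the ratio was 5.54. Inside DST, which encodes the cytoskeletal linker dystonin, the values were 0.153, 0.197, 0.190 and 1.02, a ratio of 5.16. By summed signal, the ratio was 4.68 near RFC3, 1.10 near UBE2L5, 3.31 near ASB17, 1.42 near TM2D1 and 4.76 inside DST. UW228 was above the 3 G3-MB lines at each by both measures, by less than 2-fold near UBE2L5 and TM2D1 for the sum, and none of the 5 held a TSS.

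Of 10 gene lists, immediate early genes had the highest share of genes with a shared enhancer within 10 kb. A shared enhancer lay within 10 kb of the TSS of 1196 of 19102 protein-coding genes (6.26%). The count was 11 of 26 immediate early genes (42.3%), 8 of 24 splicing factor genes (33.3%), 6 of 23 cytoskeleton and adhesion genes (26.1%) and 5 of 26 genes of the SE complex (19.2%), the cofactors that act at enhancers. Ribosomal protein genes stood close to all genes with 6 of 70 (8.57%). These shares are given without a test. The distance is that of the MB002 region, and another line can lack an enhancer within 10 kb of the same gene. This was so for SRSF1 and SRSF10 in D425 and HD-MB03. The order of the lists depended on the rule. By the closest TSS, 16 immediate early, 6 splicing factor, 9 cytoskeleton and 10 SE complex genes had a shared enhancer, compared to 10.4% of all genes. With 50% of the MB002 length covered, the counts were 5, 1, 5 and 3, compared to 1.51% of all genes. Among genes with any MB002 enhancer within 10 kb, a shared one was present at 20.0% of all genes, 64.7% of immediate early genes, 53.3% of splicing factor genes and 15.8% of ribosomal protein genes.

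Of the 11 immediate early genes with a shared enhancer, which respond to growth factors and stress, 9 had a SE in 1 line or more. Of all shared enhancers, 719 of 2451 (29.3%) were a SE in 1 line or more. JUNB, an AP-1 subunit, had 2.54, 2.44, 4.18 and 0.614 rpm per bp in MB002, D425, HD-MB03 and UW228. DUSP1, a phosphatase of MAP kinases, had 0.568, 1.33, 0.845 and 0.293. ZFP36, an mRNA decay factor, had 1.47, 2.68, 1.35 and 0.358. UW228 was at least 2-fold below each G3-MB line at these 3 and at MYC, after division by the median of the line. These are 4 of 11, where 9.75% of all shared enhancers passed the same fold, and MYC did not keep its direction after division by the input. MCL1, an antiapoptotic gene, had 2.27, 0.828, 1.77 and 1.57 rpm per bp and was a SE in MB002, HD-MB03 and UW228. IER5 was a SE in HD-MB03 and UW228. The remaining members of the list with a shared enhancer were JUND, ATF3, IER2, KLF6 and NR4A1.

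Of the splicing factors, U2AF2, which recognizes the 3′ splice site, had 3.99, 5.26, 3.58 and 0.977 rpm per bp in MB002, D425, HD-MB03 and UW228. HNRNPC had 0.942, 1.02, 1.24 and 0.445, and PTBP1 0.791, 1.14, 0.950 and 0.277. These 3 of 8 were at least 2-fold lower in UW228, compared to 9.75% of all shared enhancers. HNRNPU, with 3.43, 0.748, 6.45 and 0.712, was high in MB002 and HD-MB03 only. SRSF5 was a SE in the 3 G3-MB lines at ranks 39, 163 and 289, and a TE at rank 4951 in UW228. SRSF1, SRSF10 and HNRNPA1 were also present. Of the SE complex genes, ARID1A, of the SWI/SNF complex, had 1.27, 1.07, 2.31 and 0.508 rpm per bp and was at least 2-fold lower in UW228. BRD3, MED24, ARID1B and NIPBL, the cohesin loader, did not pass this fold.

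Of the cytoskeleton genes, PFN1, which encodes the actin-binding protein profilin, had 2.44, 1.95, 2.70 and 0.525 rpm per bp and was also at least 2-fold lower in UW228. ACTN4, an actin crosslinker, was a SE at ranks 20, 196 and 12 in D425, HD-MB03 and UW228, and a TE at rank 4712 in MB002. ACTB, TUBA1A, TPM4 and ACTN1 were the others. No gene of the 10 lists passed the fold in favour of UW228. Of all shared enhancers 5.22% passed it, so a count of 0 among 41 genes is close to the background.

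Within 10 kb, subtype genes had shared enhancers about as often as all protein-coding genes (6.26%). Of 17 G3-MB marker genes MYC had one (5.88%), and of 16 SHH-MB marker genes PTCH1, the receptor of SHH (6.25%). For the SHH-MB list this depended on the distance, with 6 of 16 within 50 kb, where 16.2% of all genes had one, and 4 of 16 by the closest TSS, where 10.4% had one. The G3-MB list had 1 and 2 of 17 by these rules. OTX2, CRX, NEUROD1, EYS and TBR1 had enhancers within 10 kb in the 3 G3-MB lines and none in UW228. Other G3-MB markers did not follow this pattern. NPR3 had one in UW228 only, EOMES in D425 and UW228 and IMPG2 in all 4 lines, while NRL, GABRA5, NRXN3 and PAX6 had none in any line. RCVRN, HLX, LMX1A and BARHL1 had them in 1 or 2 of the G3-MB lines. Of the SHH-MB markers, GLI3 and EYA1 had them in UW228 only, GLI1 in the 3 G3-MB lines only, and ATOH1, SMO and HHIP in none of the 4 lines. At PTCH1 signal per bp was 1.81, 2.37, 2.32 and 1.05 rpm in MB002, D425, HD-MB03 and UW228, and the only SE was that of HD-MB03 at rank 61. UW228 was the lowest line at this SHH target.

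Of 13 genes of the SE-driven network described by the study, MYC, BMF, IGF2BP3 and LRP8 (30.8%) had a shared enhancer within 10 kb. The study chose these genes on SEs of these lines, so the count is not independent evidence. BMF, a proapoptotic BCL2 family gene, had 1.70, 1.01, 0.345 and 0.258 rpm per bp in MB002, D425, HD-MB03 and UW228. IGF2BP3, an oncofetal RNA-binding protein, had 0.888, 1.67, 1.71 and 0.604 and was a SE in each G3-MB line and a TE at rank 8650 in UW228. LRP8, a reelin receptor, had 0.744, 0.437, 0.482 and 1.03, highest in UW228 per bp. By rank it went the other way, with a SE in MB002 and HD-MB03 at ranks 215 and 267 and a TE in D425 and UW228 at ranks 4458 and 5839. Of the 20 liver genes none had a shared enhancer, and of the 20 skeletal muscle genes MYOD1 had one, where the share over all genes was 6.26%, so both counts are close to the background.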

How the data were processed

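H3K27Ac ChIP-seq and input libraries of the 4 lines were used as the authors deposited them, as tables of enhancers. Per the methods and the submitters' processing notes, the authors used Bowtie 2 2.3.0 to place reads on GRCh38, processed them with SAMtools 1.9 and sambamba, called peaks over input with MACS2 2.2.6, and stitched and ranked them with ROSE. The deposited signal of an enhancer is rpm per bp multiplied by its length, and the deposited score is its rank, beside its SE call. The depth is unknown, so no counting error was given. The UW228 table carries a later date than the other 3.

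Overlap was computed on chromosomes 1 to 22 with Python 3.11.15, numpy 2.4.6 and pandas 2.3.3, and sequence was read with pysam 0.24.0. Plots were drawn with matplotlib 3.10.9. Input was subtracted and values below 0 were set to 0. A floor of 0.01 rpm per bp was used before log2, whereas the counts at a fold of 2 between lines were made without a floor. Genes were those of GENCODE 44, and a region was named by the protein-coding gene with a TSS inside it, or else by that closest to its centre. Positions of regions are as deposited. The matching steps were tested on simulated regions. Named were the 10 regions with the best worst rank, the SEs of all 4 lines, the 5 with the highest ratio in each direction, the 5 most even in the 25% with the highest mean, the 3 with most peaks and members of the gene lists. The members and lists were chosen with earlier results of these data known. A few genes are not reported here. Other overlap, anchor, rank, input, fold, window and TSS rules were tried as alternatives.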

Additional observations from a re-analysis of the deposited data

How the results depend on the processing

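No paired analysis was possible because each line had 1 library of each kind and no replicate numbers. With at least 50% of the MB002 length covered in each line, 615 enhancers were shared, and the share with a TSS inside was 14.3%. With the 10000 highest ranked enhancers of each line these values were 1071 and 24.8%. Without the need for UW228 they were 6415 and 12.1%, without D425 2971 and 16.5% and without HD-MB03 3446 and 15.3%. Of the 3 lines, UW228 thus limited the number most. The TSS share was 15.2% with UW228 as the anchor, 35.6% with all genes and 10.4% for enhancers of 1 peak. In each of the overlap, anchor, rank and input settings it was above that of enhancers not shared. By summed signal, 441 enhancers were at least 2-fold higher and 547 lower in UW228, and with a fold of 4 the numbers were 11 and 56. Median GC content was 54.7% in the central 300 bp of 1-peak enhancers and 48.8% in the common part. In windows of 600 bp the motif shares rose with the window, to 3.77% for CTCF, 22.8% for AP-1, 49.3% for NFY, 40.7% for SP/KLF, 8.47% for ETS, 28.1% for CRX/OTX, 3.39% for YY1, 43.3% for E-boxes and 22.8% for RFX. Over all 1-peak enhancers the values in the same order were 2.89%, 19.1%, 55.2%, 15.2%, 3.01%, 39.9%, 2.86%, 32.4% and 22.7%. RFX letters, less frequent in the shared enhancers at 300 bp, were thus about equal at 600 bp. The 41 listed genes with a shared enhancer became 83 within 50 kb, 62 by the closest TSS, 24 with the TSS inside and 16 with 50% of the length covered. These sets differ by construction, and beyond that the cause was not tested. The number of SEs in all 4 lines stayed at 6, or 7 with the top 500 as SEs. Unknown depth and single libraries limit all values, since a weak enhancer may be missed in a shallower library.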

Other observations

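Shared enhancers were not spread evenly over the chromosomes. On chromosome 19, 108 of 512 MB002 enhancers (21.1%) were shared, on chromosome 22 50 of 301 (16.6%) and on chromosome 17 134 of 942 (14.2%). The share was lowest on chromosome 18 with 35 of 555 (6.31%), followed by chromosome 4 with 6.86% and chromosome 7 with 7.46%. Without enhancers that held a TSS, it was 17.3% on chromosome 19, 15.8% on chromosome 22 and 5.74% on chromosome 18. Median enhancer length was 1479.5, 1919 and 2088 bp on chromosomes 19, 22 and 17, and 1423, 1304 and 1496 bp on chromosomes 18, 4 and 7. Its part in these shares was not tested. These values come from the libraries of 4 lines and were not tested.

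Some genes were closest to several shared enhancers. Of the 1982 genes that were closest to at least 1, 1635 had 1 and 89 had 3 or more. CDKAL1, a tRNA-modifying enzyme in a long gene, had 6. MAML3, a coactivator of Notch signalling, ZNF608, TGIF1, a repressor in TGF-beta signalling, MED13L, a subunit of the Mediator kinase module, PPARA and NANOS3 had 5 each.

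The following shared enhancers were chosen for having the most peaks in MB002, which favours a high rank in that line. That of CNN3, an actin-binding calponin, spanned 173290 bp with 42 peaks in MB002, and ranked 17 in MB002 and 190 in UW228, but 3008 in D425 and 1911 in HD-MB03. It was a SE in MB002 and UW228. That nearest to DCP2, an mRNA decapping enzyme, also had 42 peaks and ranks of 99, 829, 2079 and 4503, with a common part of 1005 bp.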
